A study of Mus musculus with 20 samples.

Results

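The genes described here encode the steps by which the liver makes, stores, burns and takes up glucose. They are 9 genes, chosen by name: Pcx, Pck1, Fbp1 and G6pc of gluconeogenesis, Gys2, Pygl and Ppp1r3b of glycogen metabolism, Pklr of glycolysis, and the glucose transporter gene Slc2a2. All 9 were measured, among 22180 genes of the array that carry a single symbol. Expression was measured in the livers of 20 adult male mice, 1 array for each mouse, on whole-transcript mouse gene arrays. Mice on the C57BL/6J background (C57Bl6 in the labels) were wild type (WT littermates) or Nfil3-/- (NFIL3 KO), without the gene for NFIL3, a transcriptional repressor of the bZIP family. No Cre driver is named for this line, so that the loss is not limited to hepatocytes. Each genotype was injected into the peritoneum with vehicle (150 mM dextrose) or tunicamycin at 1 µg per g of body weight, and livers were taken after 8 h, which gave 4 groups of 5 mice. Tunicamycin blocks N-linked glycosylation, so that misfolded proteins build up in the endoplasmic reticulum (ER) and cause ER stress (ERS). Values are log2 signal intensities, a log2 difference of -1 means that signal was halved on the linear scale, and differences carry the standard error (SE) of a fit of all 20 arrays with limma. Genes were called at an adjusted p under 0.05, with Benjamini-Hochberg adjustment over all 22180 genes. Precision is limited by there being 5 arrays in each group.

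As background, the liver feeds the body between meals by releasing glucose, first from glycogen and then by gluconeogenesis, which builds glucose from lactate, glycerol and amino acids. Glucagon and glucocorticoids switch on transcription of Pck1 and G6pc, whereas insulin and sugar push the liver toward glycogen storage and glycolysis. The final enzyme of glucose release, glucose-6-phosphatase, works inside the ER membrane.

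Sequences just upstream of these genes are shown for the members whose values the results turn on. RefSeq (GRCm38.p6) gave windows from 250 bases before to 50 bases after the transcription start for 7 of the 9 genes, 9 windows in all, since Pcx and Pklr have several starts. Gys2 and Ppp1r3b are named only. Both strands of the windows and of all 32851 promoters of the same length were searched for 11 short motifs. Windows are printed for G6pc, whose response differed most in size between genotypes without passing a test, for Pck1, whose signal fell most, and for the liver start of Pklr, the gene whose single-mouse values ran closest to those of Slc2a2. Capitals mark motif matches.

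G6pc, chr11:101367466-101367765, plus strand, GRCm38.p6: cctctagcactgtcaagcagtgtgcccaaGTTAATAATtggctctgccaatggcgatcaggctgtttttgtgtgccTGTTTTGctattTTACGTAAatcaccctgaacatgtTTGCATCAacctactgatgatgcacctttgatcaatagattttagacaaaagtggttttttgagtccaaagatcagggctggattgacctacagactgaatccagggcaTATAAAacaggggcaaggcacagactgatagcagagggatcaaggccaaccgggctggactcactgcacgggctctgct

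Pck1, chr2:173152823-173153122, plus strand, GRCm38.p6: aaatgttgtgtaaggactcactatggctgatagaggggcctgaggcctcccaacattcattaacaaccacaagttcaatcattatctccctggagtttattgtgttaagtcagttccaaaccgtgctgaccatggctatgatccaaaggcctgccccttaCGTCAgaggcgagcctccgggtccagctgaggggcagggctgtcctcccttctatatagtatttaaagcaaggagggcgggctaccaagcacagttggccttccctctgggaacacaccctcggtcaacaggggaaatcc

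Pklr, the downstream of its starts, chr3:89136373-89136672, plus strand, GRCm38.p6: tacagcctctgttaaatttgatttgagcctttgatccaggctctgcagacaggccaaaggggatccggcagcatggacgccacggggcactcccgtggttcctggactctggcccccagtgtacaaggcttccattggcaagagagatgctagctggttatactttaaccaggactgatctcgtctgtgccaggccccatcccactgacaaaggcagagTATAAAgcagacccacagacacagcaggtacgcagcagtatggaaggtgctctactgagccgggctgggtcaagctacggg

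In the G6pc window the first capitals match GTTAATNAT, a form of the HNF1 site that 0.801% of all promoters held. The next are the insulin response sequence CAAAACA read on the opposite strand, which 6.28% held. They are followed by TTACGTAA, a form of the D-box that NFIL3 and the PAR-bZIP activators bind, which 0.119% held. The C/EBP-ATF element TGATGNAA on the opposite strand (3.97% of all promoters) and the TATA box TATAAA (13.6%) come last. The D-box form began 162 bases before the start, and G6pc was the only member with it among the windows searched. The other form of the D-box, TTATGTAA, lay in 0.938% of all promoters and in 0 of the 9 windows. In the Pck1 window the capitals mark TGACG, the short form of the cAMP response element, on the opposite strand, which began 90 bases before the start and was found in 20.8% of all promoters. The same short form lay in the Pygl window, an E-box CACGTG (7.15%) lay 248 bases before the upstream start of Pcx, and the Pklr window above held TATAAA 31 bases before the start. The full element TGACGTCA (1.79%), the FOXA and FOXO site GTAAACA (3.65%) and the HNF4 site CAAAGTCCA (0.475%) were not found in the members' windows. None of the printed matches overlapped another. A match is only a run of letters, and binding was not measured in these arrays.

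Tunicamycin lowered most of these genes in both genotypes. In WT livers 7 of the 9 were lower, at a background of 13.7% of all genes called lower, and 0 were higher, at a background of 13.7% called higher. In NFIL3 KO livers 7 of the 9 were lower as well, at a background of 13.7%, and 0 were higher, at a background of 13.5%. At an unadjusted p under 0.05, 7 members passed in WT livers, all of them lower, and 8 in NFIL3 KO livers, of which Ppp1r3b was the only one higher, where 35.2% and 34.2% of all genes passed in either direction. The median log2 difference of the 9 was -0.75 in WT and -0.88 in NFIL3 KO livers, beside medians of -0.03 over all genes in each. For 5 members in WT livers and 6 in NFIL3 KO livers, all 5 tunicamycin arrays lay below all 5 vehicle arrays, which was so for 10.5% and 10.6% of all genes. In whole liver, fewer hepatocytes and less RNA per hepatocyte cannot be told apart.

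The treatment and the genotype were visible in the same arrays. Hspa5, which encodes the ER chaperone BiP, rose by 2.10 ± 0.09 (SE) in WT and by 2.15 ± 0.09 in NFIL3 KO livers, with adjusted p of 1.48e-13 and 1.46e-13. Nfil3 signal averaged 6.44 ± 0.45 (SD, n = 5) and 7.99 ± 0.47 in WT livers with vehicle and tunicamycin, against 5.41 ± 0.20 and 5.25 ± 0.46 in NFIL3 KO livers, with an adjusted p of 0.227 between genotypes with vehicle and 4.09e-07 with tunicamycin. The place of the probes relative to the deleted part was not known. In a principal component analysis the leading component (54.6% of variance) split the arrays by treatment, with scores of 34.9 to 41.8 for 4 NFIL3 KO tunicamycin livers and 22.9 for replicate 3 of that group. Of 9 hepatocyte markers 4 fell in each genotype (Ttr, Apoa1, Apob and Serpina1a) and 0 rose. The other 5 (Alb, Fgb, Ahsg, Cps1 and Hnf4a) were not called. The mean log2 signal of all 9 ranged from 12.28 to 12.38 in WT vehicle and 12.02 to 12.13 in WT tunicamycin arrays. In NFIL3 KO arrays it ranged from 12.25 to 12.34 with vehicle and 12.01 to 12.11 with tunicamycin. Serpina1a had the largest fall in both genotypes, so the lower list means do not show a fall of every marker. Among those not called, Cps1 averaged 12.78 and 12.59 in WT livers with vehicle and tunicamycin, and 12.72 and 12.62 in NFIL3 KO livers. Hnf4a averaged 10.21 and 10.23 in WT livers, and 10.18 and 10.28 in NFIL3 KO livers. The part of these hepatocyte markers in the fall of the 9 genes was not tested. Among markers of other cells, 2 of 10 for macrophages (Marco and Adgre1) were higher in WT livers, and 3 of 8 for sinusoidal endothelium, 1 of 7 for stellate cells and 1 of 4 for cholangiocytes were lower. Over all genes 13.7% were called lower and 13.5% to 13.7% higher. Lists this short cannot separate a count of 1 or 2 from those shares, and shifts of cell types were not tested. In NFIL3 KO livers 2 of 8 endothelial and 1 of 7 stellate markers were lower. None of 7 neutrophil, 6 lymphocyte and 4 adipocyte markers was called in either genotype, and 1 of 5 pancreas and 1 of 4 muscle markers were lower in WT livers. Markers of kidney tubule, the other organ that makes glucose, averaged between 3.75 and 4.42 on every array, below the array medians of 4.65 to 4.77, and 0 of 5 were called.

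**Figure D1:**
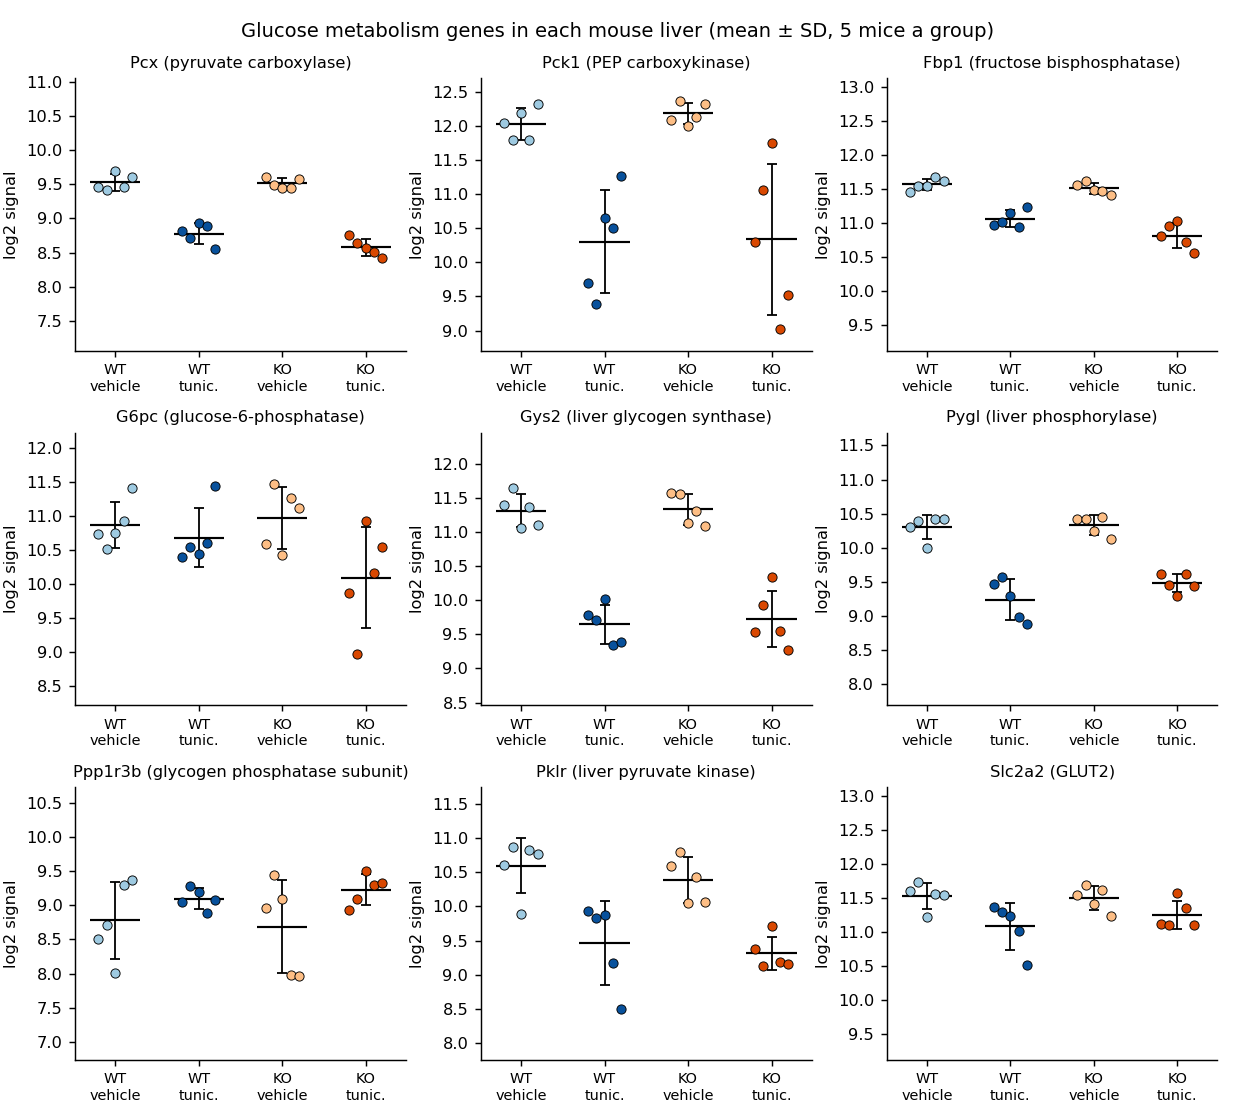
Log2 signal of the 9 genes (vertical axes, each spanning 4 log2 units) in each of 20 mouse livers, by group (tunic., tunicamycin; KO, NFIL3 KO). Points are mice in the order of their replicate number, lines are group means and bars are SD (n = 5). Pck1 and Gys2 lie lower in every tunicamycin liver than in any vehicle liver, while G6pc and Ppp1r3b overlap between treatments in both genotypes.

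Among the gluconeogenic enzymes, Pck1 fell most. It encodes cytosolic phosphoenolpyruvate carboxykinase, which turns oxaloacetate into phosphoenolpyruvate. WT livers had log2 signals of 12.04, 11.80, 12.20, 11.80 and 12.32 with vehicle (replicates 1 to 5) and 9.69, 9.39, 10.65, 10.50 and 11.27 with tunicamycin. NFIL3 KO livers had 12.10, 12.38, 12.00, 12.13 and 12.32 with vehicle and 10.30, 11.07, 11.76, 9.03 and 9.53 with tunicamycin. The vehicle livers lay close together, whereas tunicamycin livers were scattered, from replicate 3 of the NFIL3 KO group, near the vehicle range, to replicate 4 of the same group, the lowest of all 20. The group means fell by 1.73 ± 0.38 (SE) in WT livers, a 3.32-fold decrease with an adjusted p of 0.000955, and by 1.85 ± 0.38 in NFIL3 KO livers, a 3.61-fold decrease with an adjusted p of 0.000487 (limma). SD was 0.23 with vehicle and 0.76 with tunicamycin in WT livers, and 0.16 and 1.11 in NFIL3 KO livers. Without the NFIL3 KO tunicamycin array that stood apart on the leading component, Pck1 fell by 2.21 ± 0.34 in NFIL3 KO livers (adjusted p = 2.22e-05). In WT livers 0.564% of all genes had a lower log2 difference than Pck1.

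Pcx and Fbp1 showed smaller falls with much less scatter. Pcx encodes pyruvate carboxylase, the mitochondrial enzyme that feeds pyruvate into gluconeogenesis. Its log2 signals were 9.47, 9.42, 9.70, 9.46 and 9.61 in WT vehicle and 8.82, 8.71, 8.93, 8.89 and 8.55 in WT tunicamycin livers. In NFIL3 KO livers they were 9.61, 9.49, 9.45, 9.45 and 9.58 with vehicle and 8.75, 8.63, 8.56, 8.51 and 8.42 with tunicamycin. No tunicamycin liver reached the vehicle livers of its genotype, and the log2 signal fell by 0.75 ± 0.09 in WT (adjusted p = 6.26e-07) and by 0.94 ± 0.09 in NFIL3 KO livers (adjusted p = 2.41e-08). Fbp1 encodes fructose-1,6-bisphosphatase, which bypasses the phosphofructokinase step of glycolysis. WT livers had Fbp1 signals of 11.45, 11.54, 11.54, 11.68 and 11.61 with vehicle and 10.96, 11.02, 11.14, 10.94 and 11.23 with tunicamycin, and the groups did not overlap. Livers of NFIL3 KO mice had 11.56, 11.62, 11.48, 11.47 and 11.40 and 10.80, 10.95, 11.03, 10.71 and 10.56, again with no overlap. Fbp1 fell by 0.51 ± 0.09 in WT (1.42-fold, adjusted p = 0.000142) and by 0.69 ± 0.09 in NFIL3 KO livers (1.62-fold, adjusted p = 2.56e-06).

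G6pc, the catalytic subunit of glucose-6-phosphatase that frees glucose for export, was the gluconeogenic gene with the least even response. WT vehicle livers had 10.73, 10.51, 10.75, 10.92 and 11.41 and WT tunicamycin livers 10.39, 10.54, 10.44, 10.60 and 11.44. In the latter group 4 mice lay close together between 10.39 and 10.60 and replicate 5 lay at 11.44, above every WT vehicle liver. NFIL3 KO livers had 10.58, 11.47, 10.42, 11.27 and 11.12 with vehicle and 9.86, 8.97, 10.92, 10.16 and 10.54 with tunicamycin. Here the tunicamycin livers ran from 8.97, the lowest G6pc value of all 20, to 10.92, and overlapped the vehicle livers. The log2 difference was -0.18 ± 0.29 in WT livers, with a 95% interval of -0.77 to 0.41 and an adjusted p of 0.719. It was -0.88 ± 0.29 in NFIL3 KO livers, with an interval of -1.47 to -0.29 and an adjusted p of 0.0232. The difference between these 2 responses was -0.70 ± 0.40 (interval -1.53 to 0.14, unadjusted p = 0.0979, adjusted p = 1), so the responses were not shown to differ between the genotypes. The call in NFIL3 KO livers rested on single mice. Leaving out tunicamycin replicate 2 gave a log2 difference of -0.60 with an adjusted p of 0.0883, and the call was also lost without tunicamycin replicate 1 (-0.82, 0.0551), vehicle replicate 2 (-0.75, 0.0712) or vehicle replicate 4 (-0.80, 0.0597). The WT difference ranged from -0.37 without tunicamycin replicate 5 (adjusted p = 0.393) to -0.05 without vehicle replicate 5 (adjusted p = 0.943). The difference between genotypes was -0.51 ± 0.39 without WT tunicamycin replicate 5 and -0.42 ± 0.34 without NFIL3 KO tunicamycin replicate 2. Leaving out NFIL3 KO tunicamycin replicate 3, the array apart on the leading component, moved the NFIL3 KO difference to -1.09 ± 0.28 (adjusted p = 0.00453) and the difference between genotypes to -0.90 ± 0.38 (adjusted p = 0.844).

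Both enzymes that build and break the glycogen chain fell. Gys2 encodes the liver glycogen synthase, which lengthens the chain. Its log2 signals were 11.40, 11.64, 11.06, 11.37 and 11.11 in WT vehicle and 9.78, 9.72, 10.02, 9.35 and 9.38 in WT tunicamycin livers. NFIL3 KO livers gave 11.58, 11.56, 11.14, 11.31 and 11.09 with vehicle and 9.53, 9.93, 10.34, 9.55 and 9.27 with tunicamycin. The treatments were wide apart in both genotypes, with a gap of more than 1 log2 unit in WT livers between the lowest vehicle and the highest tunicamycin mouse. Gys2 fell by 1.67 ± 0.17 in WT (3.18-fold, adjusted p = 7.98e-08) and by 1.61 ± 0.17 in NFIL3 KO livers (3.06-fold, adjusted p = 1.44e-07), and the interaction was 0.06 ± 0.25. Pygl encodes the liver glycogen phosphorylase, which releases glucose units from the chain. WT livers had Pygl signals of 10.31, 10.39, 10.00, 10.42 and 10.42 with vehicle and 9.46, 9.57, 9.29, 8.98 and 8.88 with tunicamycin. Signals in NFIL3 KO livers were 10.42, 10.42, 10.24, 10.45 and 10.12 and 9.61, 9.45, 9.29, 9.61 and 9.44. The groups did not overlap in either genotype, although replicate 3 of the WT vehicle group stood below the other 4 mice. Pygl fell by 1.07 ± 0.12 in WT (2.10-fold, adjusted p = 3.91e-07) and by 0.85 ± 0.12 in NFIL3 KO livers (1.80-fold, adjusted p = 1e-05).

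Ppp1r3b was the only member whose means were higher with tunicamycin, and neither genotype passed the test. It encodes the glycogen-targeting subunit of protein phosphatase 1 that is abundant in liver and holds the phosphatase on glycogen, where it activates glycogen synthase. Signals in WT livers were 8.51, 8.71, 8.01, 9.30 and 9.38 with vehicle and 9.04, 9.28, 9.20, 8.89 and 9.08 with tunicamycin. Those in NFIL3 KO livers were 8.96, 9.45, 9.09, 7.98 and 7.96 and 8.93, 9.09, 9.51, 9.31 and 9.33. Vehicle livers were spread over more than 1 log2 unit in each genotype, whereas tunicamycin livers lay near the upper part of that range. SD was 0.57 with vehicle and 0.15 with tunicamycin in WT livers, and 0.68 and 0.23 in NFIL3 KO livers, which is the opposite order to that of Pck1. The log2 difference was 0.32 ± 0.26 in WT (adjusted p = 0.434) and 0.55 ± 0.26 in NFIL3 KO livers (95% interval 0.01 to 1.08, adjusted p = 0.139). When the highest NFIL3 KO vehicle mouse, replicate 2, was left out, the latter was 0.74 ± 0.25 with an adjusted p of 0.033, whereas it was 0.37 without vehicle replicate 4 and 0.36 without vehicle replicate 5, the lowest (adjusted p = 0.364 for each). In WT livers it ranged from 0.12 without vehicle replicate 3 to 0.47 without vehicle replicate 5. Of the 2 probesets that were averaged for Ppp1r3b, both had higher means with tunicamycin in both genotypes (0.29 and 0.35 in WT, 0.63 and 0.46 in NFIL3 KO livers).

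Pklr, the glycolytic member, fell in both genotypes. It encodes the liver and red cell pyruvate kinase, the last step of glycolysis, and in liver its transcription answers to carbohydrate. WT livers had Pklr signals of 10.62, 10.88, 9.90, 10.83 and 10.77 with vehicle and 9.94, 9.83, 9.88, 9.17 and 8.50 with tunicamycin. NFIL3 KO livers had 10.60, 10.81, 10.05, 10.43 and 10.06 and 9.37, 9.12, 9.71, 9.19 and 9.16. In WT livers the treatments overlapped only because vehicle replicate 3 lay at 9.90, just below the highest tunicamycin liver at 9.94, and in NFIL3 KO livers they did not overlap. Pklr fell by 1.13 ± 0.24 in WT (2.20-fold, adjusted p = 0.000654) and by 1.08 ± 0.24 in NFIL3 KO livers (2.11-fold, adjusted p = 0.00109).

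Slc2a2 encodes GLUT2, the carrier through which glucose enters and leaves hepatocytes. Signals were 11.61, 11.74, 11.22, 11.55 and 11.55 in WT vehicle and 11.36, 11.30, 11.23, 11.02 and 10.51 in WT tunicamycin livers. With NFIL3 KO they were 11.54, 11.69, 11.41, 11.61 and 11.23 and 11.12, 11.10, 11.57, 11.35 and 11.10. Treatments overlapped in both genotypes, and replicate 5 of the WT tunicamycin group was the lowest of all 20 livers. Slc2a2 fell by 0.45 ± 0.14 in WT livers (1.36-fold, adjusted p = 0.0215), and the log2 difference in NFIL3 KO livers was -0.25 ± 0.14 (95% interval -0.55 to 0.05, adjusted p = 0.242). The WT call was lost without tunicamycin replicate 5 (-0.31, adjusted p = 0.0788) or vehicle replicate 2 (-0.40, adjusted p = 0.0615). The difference between the responses was 0.20 ± 0.20 with an adjusted p of 1.

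**Figure D2:**
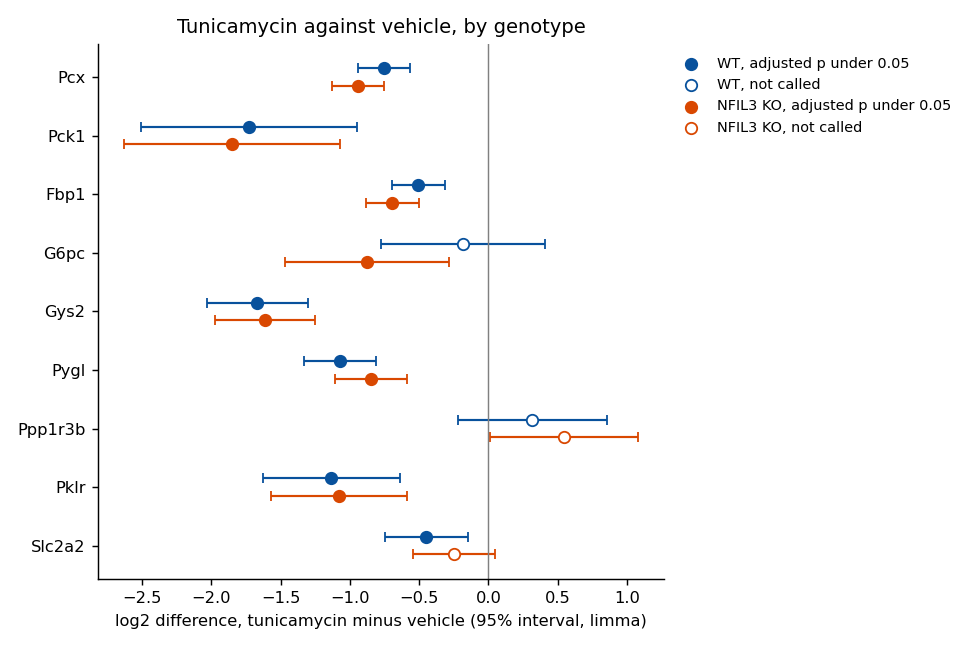
Log2 difference of tunicamycin minus vehicle (horizontal axis) for each gene in WT (blue) and NFIL3 KO (orange) livers, with 95% intervals of the limma fit; filled points have an adjusted p under 0.05. In each genotype 7 of 9 genes lie left of 0 with a filled point, and the open points are G6pc and Ppp1r3b in WT and Ppp1r3b and Slc2a2 in NFIL3 KO livers.

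No member was called between the genotypes in either treatment. With vehicle 0 of 9 members were called between NFIL3 KO and WT livers, where 0.0225% of all genes were, and 0 had an unadjusted p under 0.05 in limma, where 5.34% of all genes had. With tunicamycin 0 of 9 were called, where 0.243% of all genes were, and 2 had an unadjusted p under 0.05, where 8.95% of all genes had. These were Fbp1, with a log2 difference of -0.25 ± 0.09 (unadjusted p = 0.0139, adjusted p = 0.416), and Pcx, with -0.20 ± 0.09 (unadjusted p = 0.0349, adjusted p = 0.512). G6pc had the largest difference with tunicamycin among the 9, -0.59 ± 0.29 with a 95% interval of -1.18 to 0.00 (unadjusted p = 0.0508, adjusted p = 0.557), and it ranged from -0.80 without NFIL3 KO tunicamycin replicate 3 to -0.31 without replicate 2 of that group. For the interaction of genotype and tunicamycin 0 of 9 were called, where 0.00902% of all genes were, and 0 had an unadjusted p under 0.05, where 4.59% of all genes had. The intervals of these differences were narrow for some genes and wide for others. With vehicle that of Pcx ran from -0.20 to 0.17 and that of Fbp1 from -0.25 to 0.13. That of Pck1 ran from -0.63 to 0.94 and that of Ppp1r3b from -0.63 to 0.44. Each gene has 1 estimate of spread shared by all 4 groups. The width for Pck1 with vehicle thus carries its tunicamycin scatter (SD 0.76 and 1.11, against 0.23 and 0.16 with vehicle). For Ppp1r3b the vehicle livers were the more scattered (SD 0.57 and 0.68, against 0.15 and 0.23 with tunicamycin). Differences inside these intervals were not excluded with 5 mice a group, but the intervals are not limits of detection. A call also needed adjustment over all genes. With tunicamycin the intervals of Fbp1 (-0.44 to -0.06) and Pcx (-0.39 to -0.02) left out 0, and neither was called.

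Several enzymes of this set have another form that other tissues rely on, and the forms were set beside each other after their values had been seen. Pck2, the mitochondrial phosphoenolpyruvate carboxykinase, rose by 0.70 ± 0.14 in WT (adjusted p = 0.000356) and by 1.07 ± 0.14 in NFIL3 KO livers (adjusted p = 1.88e-06), while Pck1 fell. Its mean signals went from 5.91 to 6.61 in WT and from 5.79 to 6.86 in NFIL3 KO livers, with no overlap between treatments. Gys1, the glycogen synthase of muscle and most other tissues, rose by 1.55 ± 0.17 in WT (5.39 to 6.93, adjusted p = 1.68e-07) and by 1.33 ± 0.17 in NFIL3 KO livers (5.45 to 6.78, adjusted p = 1.51e-06). These rises were close in size to the falls of Gys2 on the log2 scale. G6pc3, the widely expressed glucose-6-phosphatase, rose by 0.82 ± 0.12 in WT and by 0.69 ± 0.12 in NFIL3 KO livers, with adjusted p of 6.43e-06 and 5.29e-05. Slc2a1, which encodes the transporter GLUT1 of most tissues, rose by 0.93 ± 0.12 in WT (adjusted p = 1.67e-06) and by 0.55 ± 0.12 in NFIL3 KO livers (adjusted p = 0.000898). Pygb, the brain form of glycogen phosphorylase, rose by 0.85 ± 0.13 in WT livers (adjusted p = 1.73e-05) and had a difference of 0.31 ± 0.13 in NFIL3 KO livers (adjusted p = 0.0894). The difference between these Pygb responses was -0.54 ± 0.18 (unadjusted p = 0.0077, adjusted p = 1), so they were not shown to differ between the genotypes. The other forms did not share this: Fbp2 had -0.05 ± 0.17 and -0.13 ± 0.17, Pygm -0.35 ± 0.21 and -0.13 ± 0.21, none of them called, and Pkm, the pyruvate kinase of other tissues, had -0.02 ± 0.10 in WT livers and fell by 0.29 ± 0.10 in NFIL3 KO livers (adjusted p = 0.043). Amounts of 2 forms cannot be compared from these signals, since each probeset has its own brightness.

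**Figure D3:**
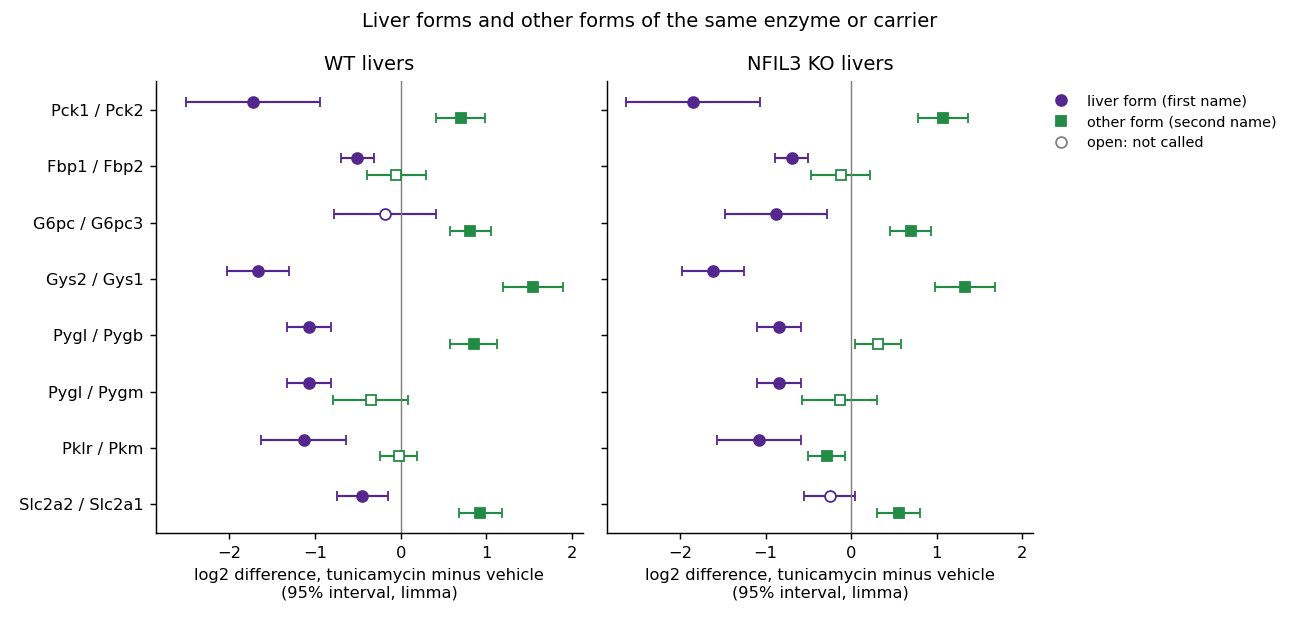
Log2 difference of tunicamycin minus vehicle (horizontal axis) with 95% intervals of the limma fit, for the liver form (purple circles, first name) and another form (green squares, second name) of each enzyme or carrier, in WT (left) and NFIL3 KO livers (right); open symbols were not called. Pck2, G6pc3, Gys1 and Slc2a1 lie right of 0 in both genotypes, Pygb is filled in WT and open in NFIL3 KO livers, and Fbp2, Pygm and Pkm lie near or left of 0.

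Other genes of the pathway were called in both directions. Of 18 other measured enzymes and carriers of gluconeogenesis, 7 were higher and 7 lower in WT livers, and 6 higher and 7 lower in NFIL3 KO livers. Over all genes 13.7% were called lower in each genotype, and 13.7% (WT) and 13.5% (NFIL3 KO) higher. Got1, the cytosolic aspartate aminotransferase, rose by 1.82 ± 0.15 and 1.84 ± 0.15 in WT and NFIL3 KO livers (adjusted p = 2.82e-09 and 2.7e-09), the largest change among them. Slc25a10, the mitochondrial dicarboxylate carrier, fell by 0.70 ± 0.13 and 1.00 ± 0.13 (adjusted p = 0.000168 and 1.87e-06), and Gpd1, the cytosolic glycerol-3-phosphate dehydrogenase, fell by 0.56 ± 0.17 and 0.98 ± 0.17 (adjusted p = 0.0166 and 0.000103).

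Among 26 other genes of glycogen metabolism 8 were higher and 8 lower in WT livers, and 8 higher and 7 lower in NFIL3 KO livers. The share of all genes called in each direction was 13.5% to 13.7%. The subunits of phosphorylase kinase, the enzyme that activates Pygl, moved apart. Phkg2, its liver catalytic subunit, rose by 1.73 ± 0.11 and 1.49 ± 0.11 in WT and NFIL3 KO livers (adjusted p = 1.81e-11 and 2.69e-10), whereas Phka2, its liver regulatory subunit, fell by 1.30 ± 0.10 and 1.32 ± 0.10 (adjusted p = 1.52e-09 and 1.37e-09). Pgm2, of the phosphoglucomutase family, rose by 1.52 ± 0.13 and 1.10 ± 0.13, and Stbd1, a protein that binds glycogen, rose by 1.32 ± 0.11 and 1.06 ± 0.11. Ppp1r3c, another glycogen-targeting subunit named after its values were seen, fell by 0.91 ± 0.25 and 1.28 ± 0.25 (adjusted p = 0.00689 and 0.000283), in the opposite direction to the means of Ppp1r3b.

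Of 19 other genes of glycolysis and sugar phosphorylation 2 were higher and 6 lower in WT livers, and 2 higher and 8 lower in NFIL3 KO livers. Over all genes 13.5% to 13.7% were called in each direction, and the counts of higher genes were near that share. Of the bifunctional enzymes that set the level of fructose-2,6-bisphosphate, a brake on Fbp1, 3 were measured. Pfkfb2 rose by 1.59 ± 0.11 and 1.46 ± 0.11 (adjusted p = 1.28e-10 and 5.86e-10), and Pfkfb3 fell by 1.53 ± 0.24 in both genotypes (adjusted p = 2.37e-05 and 2.44e-05), while Pfkfb4 had differences of -0.09 ± 0.10 and -0.02 ± 0.10 that were not called. Tpi1, triosephosphate isomerase, fell by 1.25 ± 0.10 and 1.36 ± 0.10, Pfkm, a phosphofructokinase, by 0.78 ± 0.10 and 0.89 ± 0.10, and Aldoc, an aldolase, by 0.37 ± 0.12 and 0.86 ± 0.12. Of 12 other hexose transporters 1 was higher and 1 lower in WT livers, and 1 higher and 2 lower in NFIL3 KO livers. These counts were near the 13.5% to 13.7% of all genes called in each direction. Slc2a9, whose product carries urate, fell by 1.31 ± 0.11 and 1.32 ± 0.11 (adjusted p = 2.21e-09 and 2.18e-09), and Slc2a5, the fructose transporter gene, fell by 0.78 ± 0.22 in NFIL3 KO livers (adjusted p = 0.00821) with -0.34 ± 0.22 in WT livers (adjusted p = 0.293).

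Regulators of glucose production leaned toward lower signal. Of 37 measured, 3 were higher and 16 lower in WT livers, and 4 higher and 18 lower in NFIL3 KO livers, with median log2 differences of -0.30 and -0.36, beside 13.5% to 13.7% of all genes called in each direction and an all-gene median of -0.03. Ppargc1a, which encodes PGC-1α, a coactivator of Pck1 and G6pc transcription, fell by 2.63 ± 0.20 and 2.70 ± 0.20 (adjusted p = 7.39e-10 and 5.87e-10). Onecut1, the liver transcription factor HNF6, fell by 3.63 ± 0.37 in WT livers and fell by 2.62 ± 0.37 in NFIL3 KO livers (adjusted p = 6.17e-08 and 6.74e-06). Srebf1, the insulin-driven activator of fat synthesis, fell by 2.74 ± 0.24 and 2.67 ± 0.24 (adjusted p = 5e-09 and 8.09e-09). Trib3, a pseudokinase induced by ERS, rose by 4.20 ± 0.17 and 3.84 ± 0.17 (adjusted p = 2.11e-14 and 1.46e-13). Igfbp1, a secreted protein whose gene insulin represses, as it does Pck1 and G6pc, rose by 2.06 ± 0.48 and 1.98 ± 0.48 (adjusted p = 0.00185 and 0.0027). Between genotypes, 0 of the 112 genes of all these lists were called with vehicle, with tunicamycin or in the interaction.

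Some of the 9 genes also varied together among mice of the same group. Deviations of each mouse from the mean of its group were compared for all 36 pairs of members over the 20 livers, with two-sided p-values from 100000 permutations within groups and adjustment over the pairs. Pklr and Slc2a2 deviated together (Pearson's r = 0.92, adjusted p = 0.00324; Spearman's rho = 0.87, adjusted p = 0.0036), and 18 of 20 mice lay on the same side of both means. Without WT tunicamycin replicate 5 and WT vehicle replicate 3, the mice farthest from the median of Pklr, r was 0.83. Gys2 went with both of them, with r of 0.69 for Pklr (adjusted p = 0.0101, rho = 0.77, adjusted p = 0.0099) and 0.69 for Slc2a2 (adjusted p = 0.0134, rho = 0.74, adjusted p = 0.0133), and r was 0.72 and 0.64 without the 2 mice farthest from the median of Gys2. Pygl and Pklr had r = 0.77 (adjusted p = 0.0257) but rho = 0.64 (adjusted p = 0.113), and r was 0.59 without the 2 farthest mice. Pck1 and Fbp1 leaned the same way (r = 0.73, adjusted p = 0.0607, rho = 0.57, adjusted p = 0.172, r = 0.65 without the 2 farthest mice). Pck1 and Pygl leaned opposite ways, with 14 of 20 mice on opposite sides of the means (r = -0.60, adjusted p = 0.0466, rho = -0.57, adjusted p = 0.172, r = -0.59 without the 2 farthest mice). Both of these r values of Pck1 rest mainly on the tunicamycin livers. Its SD there was 0.76 in WT and 1.11 in NFIL3 KO mice, against 0.23 and 0.16 with vehicle. Pygl and Slc2a2 had r = 0.68 (adjusted p = 0.0387) but rho = 0.57 (adjusted p = 0.172), and r was 0.45 without the 2 farthest mice. Of the 36 pairs 6 had an adjusted p under 0.05 by r and 3 by rho, and all 36 share the same arrays and their normalization.

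Single mice stood at the end of their group for several genes at once. Replicate 5 of the WT tunicamycin group had the highest Pck1, Fbp1 and G6pc of its group and the lowest Pcx, Pygl, Pklr and Slc2a2. Replicate 3 of the WT vehicle group was lowest of its group for 5 genes, Gys2, Pygl, Ppp1r3b, Pklr and Slc2a2, and highest for Pcx. Replicate 3 of the NFIL3 KO tunicamycin group, the array apart on the leading component, was highest of its group for 7 of the 9 genes and lowest for Pygl. The study's methods describe free access to chow for purchased WT mice. For the NFIL3 KO mice and their WT littermates they name neither feeding nor a fast before livers were taken. The part of feeding in these single-mouse values was not tested.

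**Figure D4:**
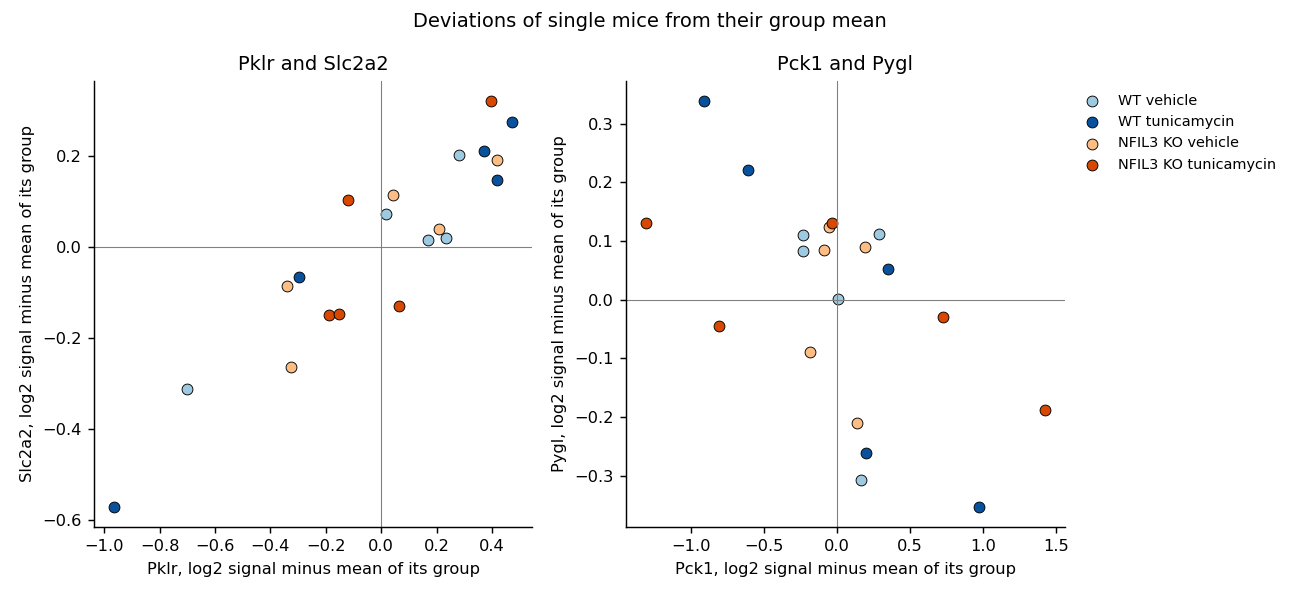
Log2 signal of each mouse minus the mean of its group, for Pklr against Slc2a2 (left) and Pck1 against Pygl (right), coloured by group (20 mice). Pklr and Slc2a2 lie along a rising line, with WT tunicamycin replicate 5 at the lower left end, and Pck1 and Pygl slope downward with more scatter.

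The genes with the most similar pattern over the 20 livers were sought by Pearson's r among 10343 named genes with a mean signal above that of the median gene. These r values mostly follow the split between treatments, which all livers share, and are given as a description. Closest were Fn1 for Pcx (0.98), Sec14l2 for Pck1 (0.91, with Foxo1 in its top 3 at 0.90), Proc for Fbp1 (0.95), Hsd17b11 for Gys2 (0.98) and Tmem135 for Pygl (0.98). For Pklr it was Gbe1 (0.94), the glycogen branching enzyme, and for Slc2a2 it was Pklr itself (0.88). G6pc and Ppp1r3b, the genes with the weakest WT response, had weaker neighbours, Selenom at 0.79 and Kdm8 at 0.75.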

How the data were processed

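Liver RNA of 20 mice was hybridised to whole-transcript mouse gene arrays, 1 per mouse. According to the submitters' processing notes and the study's methods, the arrays were background-corrected, quantile-normalized and summarized by RMA (Partek) into the values the authors deposited, on the log2 scale, for 41345 probesets. They lay between 0.515 and 13.7, with array medians of 4.65 to 4.77. They were used as deposited. Probesets with the same symbol were averaged into 22180 genes; Ppp1r3b had 2 probesets and every other member 1. Quantile normalization forces equal distributions and RMA compresses large differences.

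Groups came from the labels. Group means were fitted to all 20 arrays with limma 3.58.1 in R 4.3.3 (lmFit, eBayes), with 5 two-sided contrasts and Benjamini-Hochberg adjustment over all genes, and the script was tested on simulated data. The labels give no batch. Replicate numbers did not pair the mice. The 9 members, the lists and the motifs were chosen with earlier results of these data known. All 9 members were named, with up to 5 called genes of each pathway list by size of change. Alternatives were 3 other normalizations, a filter on low genes, single probesets, a mean-variance trend, array weights, only the groups compared, a replicate block, and leaving out each mouse. Marker lists of liver and other cells were checked.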

Additional observations from a re-analysis of the deposited data

Results flagged for a closer look

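In 36 sets of 5 values (9 genes in 4 groups) 3 values lay farther from the others of their set than Dixon's limit of 0.71 for the gap over the range. Chance gives about 1 in 20 such sets, but sets of different genes share the same mice and are not independent. G6pc in replicate 5 of the WT tunicamycin group was 11.44, where the next mouse had 10.60 (0.802 of the range). Pygl in replicate 3 of the WT vehicle group was 10.00, with the next mouse at 10.31 (0.736). Pklr in the same mouse was 9.90, with the next at 10.62 (0.732).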

How the results depend on the processing

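The count of 7 lower members was kept in WT and in NFIL3 KO livers under each of the 9 alternatives other than leaving out mice, and ranged from 6 to 7 when single mice were left out. The counts of 0 called members between genotypes and in the interaction stayed at 0 under every alternative run. Same-numbered mice did not deviate together (correlations of -0.14 to 0.10 over 30 pairs, 2 of them over 0.1). With the replicate block 7 members were called in each genotype and no member's call changed, while calls over all genes between genotypes with tunicamycin went from 54 to 36. Single probesets gave 25 calls in that comparison. Over 1296 repeats of single-gene results, 6 lost a call (G6pc in NFIL3 KO livers in 4 and Slc2a2 in WT livers in 2) and 1 gained a call (Ppp1r3b in NFIL3 KO livers), all by leaving out a single mouse and each given with its value above, with the G6pc call in NFIL3 KO livers at an adjusted p of 0.05 after rounding when only those 2 groups were fitted. In all, 42 changed sign, all of genes that were called neither before nor after. With vehicle, the difference between genotypes of Pcx was 0.0054 under cyclic loess, 0.0022 under repeated quantile normalization and -0.0428 to 0.0274 with single mice left out. Under the latter those of G6pc ranged from -0.0162 to 0.2457, of Gys2 from -0.045 to 0.1015, of Pygl from -0.0536 to 0.0756, of Ppp1r3b from -0.2875 to 0.0871 and of Slc2a2 from -0.1136 to 0.0304. With tunicamycin, that of Pck1 was -0.22 with array weights and -0.32 to 0.36 with single mice left out, and that of Gys2 -0.0782 to 0.1884. Interactions ranged from -0.48 to 0.21 for Pck1, from -0.0975 to 0.1691 for Gys2 (-0.0119 with array weights) and from -0.1865 to 0.2299 for Pklr. The cause of these changes was not tested. The interaction needs all groups and was not run with only 2. With 5 mice a group, the interval of each gene shows how loosely its difference is known. It is not a limit of detection, since calls also needed adjustment over all genes. RNA signals say nothing of enzyme activity, glycogen or blood glucose.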
